A study of Homo sapiens with 12 samples.

Results

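J-domain proteins, also called HSP40 co-chaperones, were followed through their transcripts in A549/DDP, a subline of the human lung adenocarcinoma line A549 that resists cisplatin. The 33 genes were the rows of the deposited tables with listed DNAJA, DNAJB and DNAJC symbols, out of 61510 genes, and all 33 were found: 4 DNAJA, 7 DNAJB and 22 DNAJC genes. DNAJB9, DNAJB11 and DNAJC3, which respond to stress of the endoplasmic reticulum, are not among them and are described beside them. The tables hold RNA sequencing of 12 libraries, 3 in each of 4 groups. In shNRF2 GNA, cells with a short hairpin RNA against NRF2, a transcription factor encoded by NFE2L2, were given 4 µM gambogenic acid (GNA) for 24 h. In shNRF2 DMSO the same line was given the solvent for 24 h. In shNC GNA and shNC DMSO, cells with a control hairpin were treated in the same 2 ways. The series title asks about NRF2 and HSF1 signalling in the action of GNA. All 4 groups were grown with 1 µg/ml cisplatin and treated at 70% confluence. Each hairpin is represented by 1 line, so a difference between the lines cannot be told apart from other differences between those lines.

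J-domain proteins bring unfolded clients to HSP70 and stimulate its ATPase through a histidine-proline-aspartate motif in the J domain. Class A and class B proteins (DNAJA and DNAJB) mostly bind many clients themselves, and class C proteins (DNAJC) share only the J domain and take HSP70 to particular places, such as the ribosome exit, the spliceosome, the lumen or membrane of the endoplasmic reticulum, the mitochondrial import motor or vesicles. Some genes of the family, DNAJB1 above all, are classical targets of the heat shock factor HSF1, and others are expressed steadily.

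Levels within a gene are CPM, counts on a common library size, with library totals scaled by TMM, a method that sets the bulk of genes equal between libraries. Levels between genes are the deposited FPKM values, which are also per length. The lengths implied by these values differed widely, with 2668 bases for DNAJA1, 2891 for DNAJC8, 8188 for DNAJB1 and 25053 for DNAJC10. Ranks, shares and sums over genes in FPKM therefore depend on these lengths. A change is a log2 fold change ± SE from edgeR's quasi-likelihood test on 15653 genes, and a gene was called where the Benjamini-Hochberg adjusted p was under 0.05. Of the 33 genes 32 were tested. DNAJA4 had 2 to 10 counts in a library and did not pass the filter on low counts. Whether each group's 3 libraries are separate cultures is not in the labels, so the p-values reflect library-to-library spread that may be technical. In these bulk libraries, fewer cells of a kind and less RNA per cell cannot be told apart.

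Library totals were 12848607 to 17192671 counts. NFE2L2 stood at 45.8 ± 2.00 CPM in shNRF2 GNA and 87.4 ± 3.85 in shNC GNA, and at 50.2 ± 2.80 in shNRF2 DMSO and 77.9 ± 3.60 in shNC DMSO (mean ± SD, n = 3 each), and both differences were called (-0.93 ± 0.064 and -0.64 ± 0.064). The epithelial keratin genes KRT8 and KRT18 were at 654 FPKM or more in every group, while the surfactant gene SFTPC, which defines alveolar type 2 cells, had group means of 0.0335 FPKM or less. The 5 alveolar type 2 markers summed to 2.86 to 3.21 FPKM in shNRF2 GNA, 0.545 to 0.987 in shNRF2 DMSO, 1.06 to 1.45 in shNC GNA and 0.415 to 0.698 in shNC DMSO, with LAMP3 the highest of the 5 by group mean, SFTPB at 0 in shNRF2 DMSO and SFTPA1 at 0 in the other groups. The 4 epithelial markers summed to 1778 to 1880 FPKM in shNRF2 GNA and 2718 to 2864 in shNRF2 DMSO, and to 1815 to 1848 in shNC GNA and 2683 to 2828 in shNC DMSO. KRT8 and KRT18 made nearly all of these sums. The means of the other epithelial markers were not lower with GNA. CDH1 averaged 11.3 FPKM in shNRF2 GNA, 10.3 in shNRF2 DMSO, 7.62 in shNC GNA and 5.18 in shNC DMSO. EPCAM averaged 1.26, 0.945, 1.42 and 1.17 FPKM in the same order. Fibroblast, endothelial and leukocyte markers summed to at most 0.935, 0.0827 and 0.175 FPKM, with CD3E at 0 in shNC GNA. The part of these markers in the results was not tested. Library shNC DMSO 1 stood furthest from the other libraries of its group, at chi-squares of 7.58 and 5.96 per degree of freedom, against 3.59 between the other 2. To a lesser degree shNC GNA 1 also stood apart, at 4.00 and 5.09, against 2.75 between the other 2. Libraries shNRF2 DMSO 1 and 3 were at 5.03. Counts of called genes without shNC DMSO 1 are given after the comparisons.

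Promoter sequences of 31 of the 33 genes were found in the RefSeq table of GRCh38.p14, as 42 windows of 300 bases that lie mostly before a start. The heat shock element bound by HSF1 is built of alternating GAA and TTC units, so the windows were searched for GAANNTTC and TTCNNGAA, each its own reverse complement, and for the longer GAANNTTCNNGAA on both strands, which overlaps the other 2. GAANNTTC stood in the windows of DNAJA1, DNAJA4, DNAJB1 and DNAJB6 (5 of the 42 windows) and in 6.77% of all 35116 windows. TTCNNGAA stood in DNAJA1, DNAJB4, DNAJB6 and DNAJC15 (4 of 42) and in 7.74% of all windows. The longer form stood in DNAJA1 and DNAJB6 (2 of 42) and in 0.49% of all windows. The windows of DNAJB1, DNAJA1, DNAJB6 and DNAJB4 are shown because these 4 genes had the most positive differences in GNA response between the lines. They lie at chr19:14518348-14518647 (minus strand), chr9:33025023-33025322 (plus strand), chr7:157336754-157337053 (plus strand) and chr1:78004689-78004988 (plus strand), in that order. Each is printed 5′ to 3′ on the gene's strand, and capitals mark the matches:
DNAJB1: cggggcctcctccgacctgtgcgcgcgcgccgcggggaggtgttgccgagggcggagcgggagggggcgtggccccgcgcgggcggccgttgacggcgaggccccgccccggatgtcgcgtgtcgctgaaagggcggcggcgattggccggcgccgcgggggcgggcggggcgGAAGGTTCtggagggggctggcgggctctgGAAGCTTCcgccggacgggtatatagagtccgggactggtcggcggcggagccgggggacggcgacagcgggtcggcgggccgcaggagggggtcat
DNAJA1: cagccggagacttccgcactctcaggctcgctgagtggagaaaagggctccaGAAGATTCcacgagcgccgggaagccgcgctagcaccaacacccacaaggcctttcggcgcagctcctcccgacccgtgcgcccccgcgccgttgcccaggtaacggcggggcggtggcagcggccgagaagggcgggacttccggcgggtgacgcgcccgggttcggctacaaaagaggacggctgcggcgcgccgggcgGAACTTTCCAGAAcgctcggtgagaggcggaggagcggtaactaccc
DNAJB6: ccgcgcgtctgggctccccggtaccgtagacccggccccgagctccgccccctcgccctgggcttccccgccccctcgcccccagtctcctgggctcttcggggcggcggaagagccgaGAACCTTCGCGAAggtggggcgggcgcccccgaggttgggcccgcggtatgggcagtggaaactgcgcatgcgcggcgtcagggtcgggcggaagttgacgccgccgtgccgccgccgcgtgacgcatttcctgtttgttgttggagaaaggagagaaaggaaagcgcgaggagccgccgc
DNAJB4: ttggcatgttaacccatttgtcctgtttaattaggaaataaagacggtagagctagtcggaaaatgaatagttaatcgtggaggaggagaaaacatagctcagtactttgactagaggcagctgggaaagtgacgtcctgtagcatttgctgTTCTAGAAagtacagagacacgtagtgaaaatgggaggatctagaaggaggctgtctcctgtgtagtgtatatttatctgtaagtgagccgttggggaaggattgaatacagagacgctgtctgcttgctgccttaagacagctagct
The DNAJB1 window held GAANNTTC from base -77 to -70 and from -47 to -40, counted from its start at +1, and the window of another DNAJB1 start held it from +2 to +9. The DNAJA1 window held it from -198 to -191, and the longer form from +4 to +16. The DNAJB6 window held the longer form from -131 to -119, and the DNAJB4 window TTCNNGAA from -98 to -91. DNAJC2, DNAJB2, DNAJC21 and DNAJC7, which also had called differences in response, held none of these GAA and TTC matches. DNAJA4, which was not tested, and DNAJC15, whose difference was not called, held matches and are not shown. The printed windows were chosen by the responses in these same data, so the matches in them are no test of a link. A match is a description of the letters and not evidence of binding. TGACNNNGC, the core of the element through which NRF2 acts, was searched on both strands. It stood in the windows of DNAJA2, DNAJB6, DNAJC10 and DNAJC11 (4 of 42) and in 13.3% of all windows.

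DNAJA1, a farnesylated class A protein of the cytosol, was the most abundant of the 33 transcripts in every group, at 796 ± 22.7 FPKM in shNRF2 GNA, 461 ± 15.5 in shNRF2 DMSO, 632 ± 17.7 in shNC GNA and 653 ± 31.2 in shNC DMSO. Of the summed FPKM of the 33 genes it made 55.1% in shNRF2 GNA, 46.7% in shNRF2 DMSO, 51.7% in shNC GNA and 53.0% in shNC DMSO. By FPKM, DNAJC8, a protein of the spliceosome, held rank 2 and DNAJC2, which binds the ribosome exit, rank 3 in each group. This order rests on implied lengths of 2891 and 6706 bases, since mean CPM was higher for DNAJC2 in every group. DNAJC2 averaged 542 CPM against 397 for DNAJC8 in shNRF2 GNA, and 443 against 418 in shNRF2 DMSO. In shNC the means were 497 against 397 CPM with GNA and 564 against 486 with DMSO. DNAJB1, the main heat-inducible class B gene, held rank 4 in shNRF2 GNA (63.0 ± 0.489 FPKM), where it did not differ beyond the spread from DNAJC1 at 62.5 ± 1.78. In the other groups it held rank 11 in shNRF2 DMSO (11.9 ± 0.429 FPKM), 10 in shNC GNA (22.4 ± 0.749) and 10 in shNC DMSO (13.1 ± 1.05, beside DNAJB6 at 13.1 ± 0.629). At the low end, DNAJA4, DNAJC4, DNAJC15, DNAJC27, DNAJC28 and DNAJC30 stayed under 5 CPM in every group.

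Summed FPKM was taken by subfamily. DNAJA summed to 866 ± 24.2 in shNRF2 GNA and 526 ± 17.8 in shNRF2 DMSO, a ratio of 1.65, and to 708 ± 18.8 in shNC GNA and 730 ± 33.1 in shNC DMSO, a ratio of 0.97. DNAJB summed to 123 ± 1.01 in shNRF2 GNA and 54.1 ± 1.10 in shNRF2 DMSO, a ratio of 2.28, and to 77.7 ± 1.68 in shNC GNA and 62.7 ± 3.40 in shNC DMSO, a ratio of 1.24. Without DNAJB1 these DNAJB ratios were 1.43 in shNRF2 and 1.12 in shNC. DNAJC summed to 454 ± 9.10 in shNRF2 GNA and 408 ± 13.1 in shNRF2 DMSO, a ratio of 1.11, and to 437 ± 11.2 in shNC GNA and 440 ± 11.8 in shNC DMSO, a ratio of 0.993. DNAJA1 made most of the DNAJA sum in each group. FPKM carries library totals and not TMM, so these ratios of GNA over DMSO lie higher than they would with TMM. With library totals the median log2 fold change of all genes was 0.073 in shNRF2 and 0.12 in shNC, against 0.0098 and 0.017 with TMM. No test was run on the sums.

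**Figure D1:**
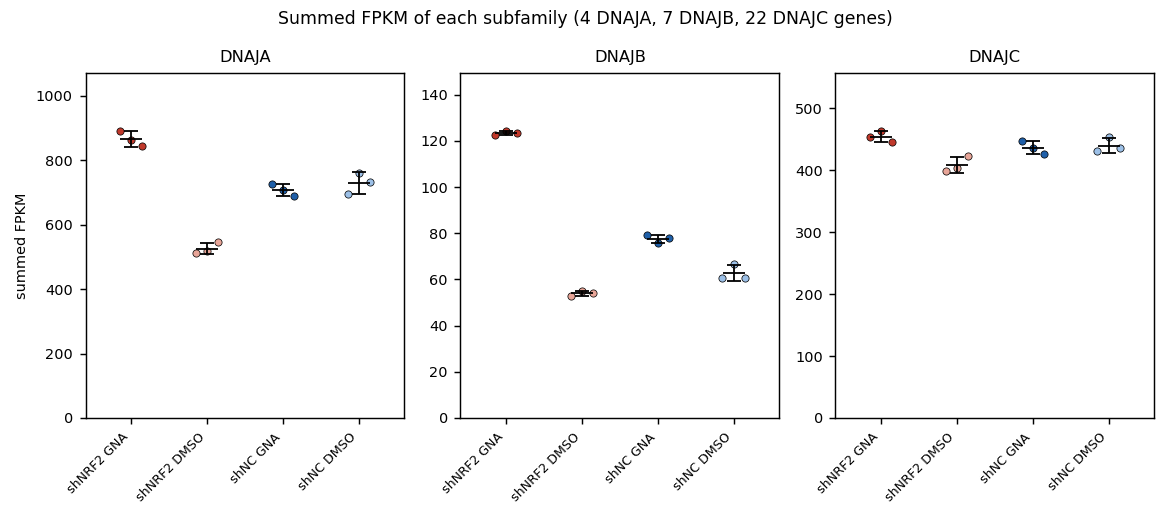
Summed FPKM of the DNAJA (4 genes), DNAJB (7 genes) and DNAJC (22 genes) subfamilies in each library (points), with the mean and SD of 3 libraries, in shNRF2 GNA, shNRF2 DMSO, shNC GNA and shNC DMSO. DNAJA and DNAJB sums were highest in shNRF2 GNA, at 866 and 123 FPKM, and the DNAJC sums lay between 408 and 454.

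In shNRF2 cells, the genes of the family that passed the test were higher with GNA in all but 1 case. With GNA against DMSO, 12 of the 32 tested genes (37.5%) were higher and 1 (3.12%) was lower, where 16.7% of all tested genes were called higher and 17.0% lower (33.7% either way). The median log2 fold change was 0.14 over the 32 genes and 0.0098 over all genes. The rises lay among client-binding genes of the cytosol (DNAJB1, DNAJB2, DNAJB4, DNAJA1 and DNAJB6) and among genes of the endoplasmic reticulum (DNAJC1, DNAJC25, DNAJC10 and DNAJC18), with DNAJA3 of mitochondria and the ribosome genes DNAJC2 and DNAJC21. By subfamily, 2 of 3 DNAJA, 4 of 7 DNAJB and 6 of 22 DNAJC genes rose, with median changes of 0.31, 0.29 and 0.09. By place, 5 of 8 genes of the cytosol and nucleus, 4 of 8 of the endoplasmic reticulum, 2 of 6 of the ribosome and nucleus, 1 of 6 of mitochondria and 0 of 4 of vesicles and others rose.

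DNAJB1, on chromosome 19 at 14514770 to 14529770 (minus strand, GRCh38), stood at 499, 499 and 501 CPM in the 3 shNRF2 GNA libraries, against 97.1, 96.4 and 103 CPM in shNRF2 DMSO. It thus changed by 2.34 ± 0.056 (5.05-fold, edgeR adjusted p = 7.7e-22), the largest change of the 32 genes, with no overlap between the groups. DNAJB2, a class B protein with ubiquitin-interacting motifs that takes clients to the proteasome, was at 45.4, 44.8 and 42.5 CPM with GNA, against 24.3, 25.3 and 20.4 CPM with DMSO. All 3 GNA libraries lay above all 3 DMSO libraries, and the change was 0.92 ± 0.081 (edgeR adjusted p = 6.5e-10). DNAJB4, a class B relative of DNAJB1 on chromosome 1 at 77979175 to 78017964 (plus strand), was at 76.8, 85.4 and 78.9 CPM with GNA, against 42.8, 46.9 and 45.8 CPM with DMSO. Its groups did not overlap either, at 0.83 ± 0.073 (edgeR adjusted p = 6.0e-10). DNAJA1, on chromosome 9 at 33025211 to 33039907 (plus strand), was at 2119, 2064 and 1989 CPM with GNA, against 1217, 1219 and 1295 CPM with DMSO. That is a change of 0.73 ± 0.046 (edgeR adjusted p = 8.8e-13) with well-separated groups, and in CPM the largest gain of the 32 genes.

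Of the genes of the endoplasmic reticulum, DNAJC1, a membrane protein whose J domain faces the lumen, was at 154, 153 and 145 CPM in shNRF2 GNA, against 105, 105 and 99.7 CPM in shNRF2 DMSO (0.55 ± 0.052). DNAJC10, a disulfide reductase of the lumen also called ERdj5, was at 303, 314 and 299 CPM with GNA, against 214, 212 and 234 CPM with DMSO (0.47 ± 0.048). DNAJC25, a membrane protein, was at 46.1, 46.9 and 45.7 CPM with GNA, against 33.9, 28.5 and 34.6 CPM with DMSO (0.51 ± 0.078). In all 3 genes the groups were apart, with edgeR adjusted p = 2.3e-09, 1.0e-08 and 7.2e-06. DNAJC18 rose by 0.32 ± 0.12 (edgeR adjusted p = 0.033), a call that was lost with DESeq2 (adjusted p = 0.058), without the low-count filter (0.063) and without any 1 of 5 of the 6 libraries compared (0.056 to 0.13), shNRF2 DMSO 3 being the exception.

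DNAJC9, a co-chaperone of histone proteins on chromosome 10 at 73183362 to 73248862 (minus strand), was the 1 gene that fell. It stood at 67.3, 67.0 and 66.7 CPM in shNRF2 GNA, against 104, 110.5 and 107 CPM in shNRF2 DMSO. The GNA libraries lay within 1 CPM of each other and all below the DMSO libraries, at -0.68 ± 0.056 (edgeR adjusted p = 2.0e-10). In the GENCODE annotation 24.0% of its exon bases are shared with FAM149B1 on the opposite strand, whose highest count was 373 against a lowest count of 893 for DNAJC9. Whether counting used the strand is not stated in the labels. The smaller rises were those of DNAJA3 (0.31), DNAJB6 and DNAJC2 (0.29 each) and DNAJC21 (0.24), a factor of large ribosomal subunit assembly. The 19 genes not called had log2 fold changes of -0.72 to 0.21, and the 14 of them with at least 5 CPM in a group had -0.33 to 0.21.

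**Figure D2:**
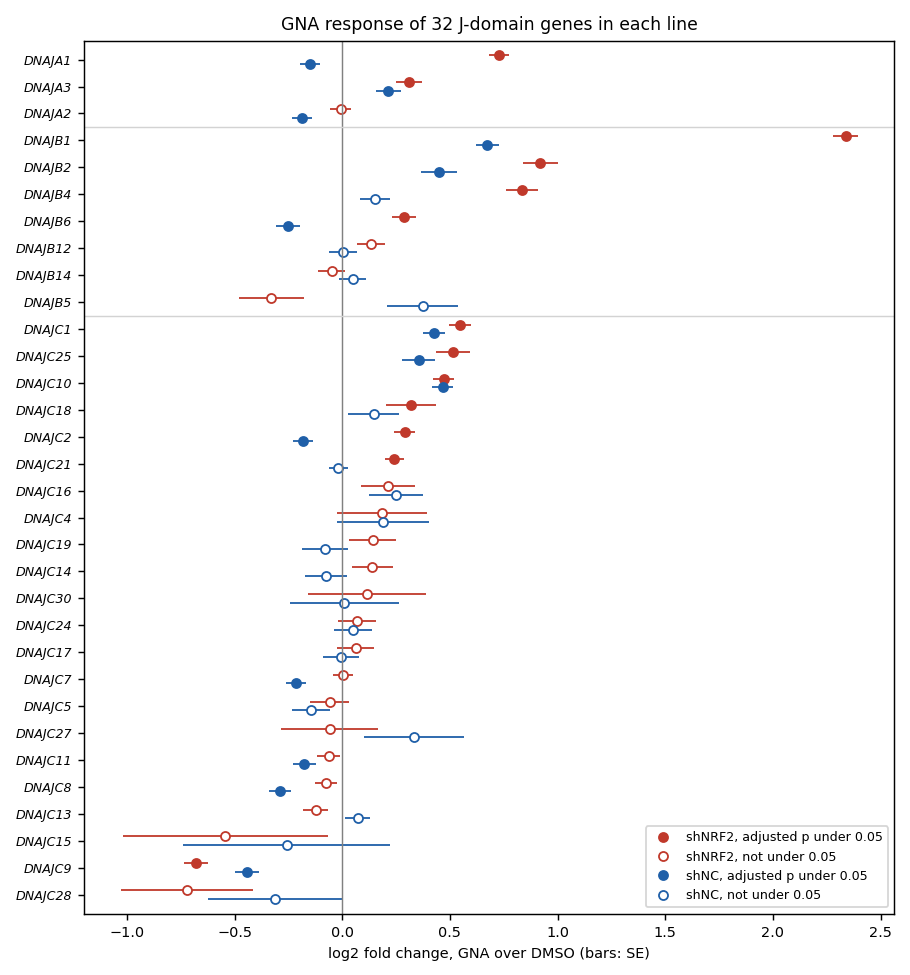
Log2 fold change of GNA over DMSO for the 32 tested J-domain genes, with SE bars, in shNRF2 (red) and shNC (blue), by subfamily and ordered by the shNRF2 value. Filled points have an adjusted p under 0.05. DNAJB1 stands out at 2.34 in shNRF2 and 0.67 in shNC, and DNAJA1, DNAJB6 and DNAJC2 lie above 0 in shNRF2 and below 0 in shNC.

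In shNC cells the same dose gave a mixed picture. With GNA against DMSO, 6 of the 32 genes (18.8%) were higher and 8 (25.0%) were lower, where 14.6% of all genes were called higher and 16.1% lower (30.7% either way). The median change was 0.0053 over the 32 genes and 0.017 over all genes. All 6 that rose had also risen in shNRF2: DNAJB1, DNAJB2, DNAJC10, DNAJC1, DNAJC25 and DNAJA3. They are 50.0% of the 12 that rose there and 100% of the 6 here. The 8 that fell were DNAJC9, DNAJC8, DNAJB6, DNAJC7, DNAJA2, DNAJC2, DNAJC11 and DNAJA1, at -0.44 to -0.15. DNAJC11, a protein of the mitochondrial outer membrane, shares 27.9% of its exon bases with THAP3 on the opposite strand. This lower side depends on how libraries are scaled. With library totals in place of TMM, which shifted the median of all genes to 0.12, 10 genes were higher and 3 (DNAJC9, DNAJC8 and DNAJB6) lower. DNAJA1, DNAJA2, DNAJC2, DNAJC7 and DNAJC11 then kept negative values of -0.11 to -0.05 without a call. Over all genes, 3543 were then higher and 1542 lower, against 2284 and 2526 with TMM.

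DNAJB1 in shNC was at 175, 187 and 177 CPM with GNA, against 104, 123 and 110.1 CPM with DMSO. The groups were apart, and the change was 0.67 ± 0.055 (1.60-fold, edgeR adjusted p = 3.1e-10). DNAJB2 was at 31.5, 29.5 and 31.8 CPM with GNA, against 22.7, 22.02 and 23.2 CPM with DMSO (0.45 ± 0.082, edgeR adjusted p = 0.00011). DNAJC10 was at 227, 226 and 217 CPM with GNA, against 161, 162 and 161 CPM with DMSO (0.47 ± 0.049, edgeR adjusted p = 2.7e-08). In neither gene did the groups overlap. DNAJC1 stood at 148, 149 and 140.0 CPM with GNA, against 106, 108 and 111 CPM with DMSO (0.43 ± 0.051, edgeR adjusted p = 3.0e-07). DNAJC25 was at 43.5, 39.0 and 40.0 CPM with GNA, against 32.7, 33.3 and 29.7 CPM with DMSO (0.35 ± 0.078, edgeR adjusted p = 0.00090). Again every GNA library lay above every DMSO library. DNAJC9 was at 77.4, 78.7 and 74.8 CPM with GNA, against 98.8, 109.7 and 105 CPM with DMSO, a fall of -0.44 ± 0.055 (edgeR adjusted p = 5.3e-07) with no overlap.

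**Figure D3:**
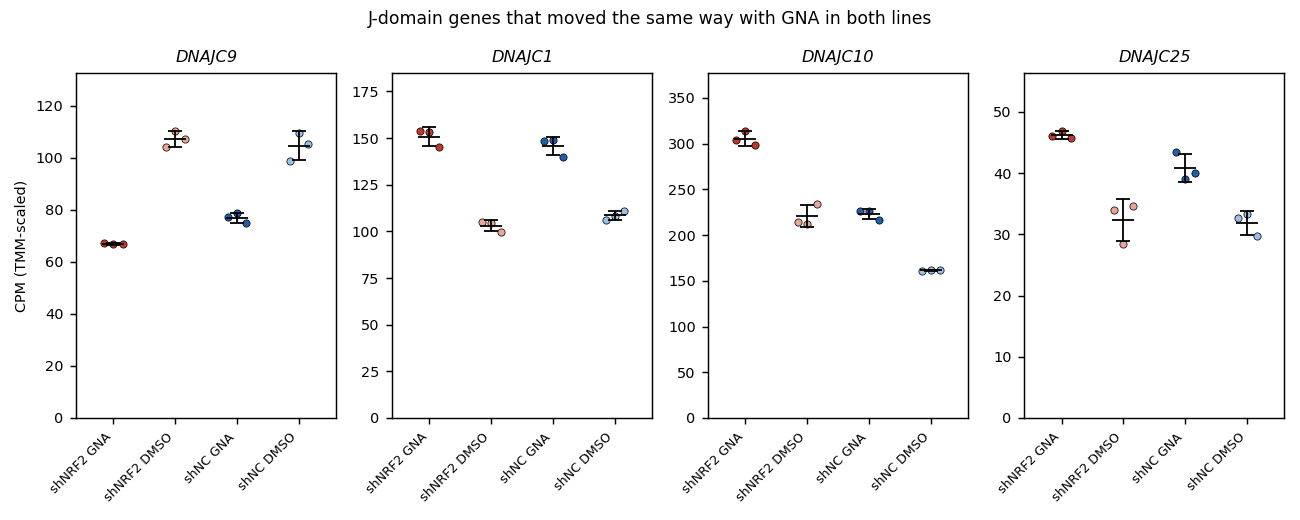
CPM of DNAJC9, DNAJC1, DNAJC10 and DNAJC25 in each library (points), with the mean and SD of 3 libraries per group. DNAJC9 was lower with GNA in both lines and the 3 genes of the endoplasmic reticulum were higher with GNA in both lines.

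The difference of the GNA responses, shNRF2 minus shNC, was tested gene by gene. It was called above 0 for 8 of the 32 genes (25.0%), DNAJB1, DNAJA1, DNAJB4, DNAJB6, DNAJC2, DNAJB2, DNAJC21 and DNAJC7, and below 0 for 0 genes (edgeR). Over all genes 3.58% were called above 0 and 3.24% below (6.82% either way). Without adjustment, 3 genes were below 0 at a p under 0.05 (DNAJB5, DNAJC9 and DNAJC13), and DESeq2 called 2 of them (DNAJB5 and DNAJC9). The median difference was 0.12 over the 32 genes and -0.0048 over all genes. With library totals, all genes split into 414 above and 674 below, against 561 and 507 with TMM, and the J-domain genes into 7 above and 2 below. Of the 8 genes 6 are in the group of the cytosol and nucleus, which has 8 tested members, and the other 2, DNAJC2 and DNAJC21, in that of the ribosome and nucleus.

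Several patterns stood behind these differences. DNAJB1 and DNAJB2 rose in both lines, and by more in shNRF2, with differences of 1.66 ± 0.078 and 0.47 ± 0.12 (edgeR adjusted p = 1.8e-14 and 0.012). The call of DNAJB2 was lost with limma on log2(FPKM + 0.1), at an adjusted p = 0.052. DNAJB4 rose in shNRF2, while in shNC it was at 92.4, 82.4 and 83.9 CPM with GNA, against 73.5, 86.6 and 72.5 CPM with DMSO, with overlapping groups (0.15 ± 0.069, edgeR adjusted p = 0.10). Its difference was 0.68 ± 0.10 (edgeR adjusted p = 6.4e-05). DNAJA1, DNAJB6 and DNAJC2 rose in shNRF2 and fell in shNC. In shNC the calls of DNAJA1 and DNAJC2 were lost with library totals (adjusted p = 0.45 and 0.20), and those of all 3 genes with limma on log2(FPKM + 1) (0.50 for DNAJA1, 0.087 for DNAJB6 and 0.21 for DNAJC2), with negative values throughout.

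DNAJA1 was at 1699, 1651 and 1603 CPM in shNC GNA, against 1725, 1922 and 1844 CPM in shNC DMSO, a fall of -0.15 ± 0.046 (edgeR adjusted p = 0.014). The call was lost without shNC GNA 3 (adjusted p = 0.069) or shNC DMSO 2 (0.094). Its difference between the lines was 0.88 ± 0.065 (edgeR adjusted p = 4.3e-10). DNAJB6, whose product keeps polyglutamine proteins from aggregating, was at 213, 209 and 214 CPM in shNRF2 GNA, against 163, 180.1 and 178 CPM in shNRF2 DMSO. In shNC it was at 181, 160 and 177 CPM with GNA, against 195, 217 and 204 CPM with DMSO. The groups did not overlap in either line, and the difference was 0.54 ± 0.079 (edgeR adjusted p = 5.6e-05). Up to 632 counts fell on 8 annotated pseudogenes of DNAJB6, against at least 2328 on the gene, so part of its reads may be split. DNAJC2 was at 536, 562 and 527 CPM in shNRF2 GNA, against 431, 440 and 458 CPM in shNRF2 DMSO. In shNC it was at 522, 503 and 468 CPM with GNA, against 566, 582 and 543 CPM with DMSO. Again neither line overlapped, and the difference was 0.47 ± 0.068 (edgeR adjusted p = 4.5e-05). DNAJC21 (0.26 ± 0.064, edgeR adjusted p = 0.012) and DNAJC7 (0.22 ± 0.065, 0.039), a co-chaperone with tetratricopeptide repeats that also binds HSP90, had the smallest called differences. DNAJC21 rose in shNRF2 (0.24) and stood at -0.02 in shNC without a call. DNAJC7 stood at 0.00 in shNRF2 without a call, so its difference came from its fall in shNC (-0.22). The call of that fall was lost with library totals (adjusted p = 0.052) and with limma at either pseudocount (0.053 and 0.055). The difference of DNAJC7 lost its call in 14 of 21 alternatives, among them library totals (adjusted p = 0.086). It was also lost without each library other than shNC DMSO 1 and shNC GNA 1 and shNRF2 DMSO 3 (adjusted p up to 0.12). The difference of DNAJC21 lost its call without shNRF2 DMSO 2 (0.0503).

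**Figure D4:**
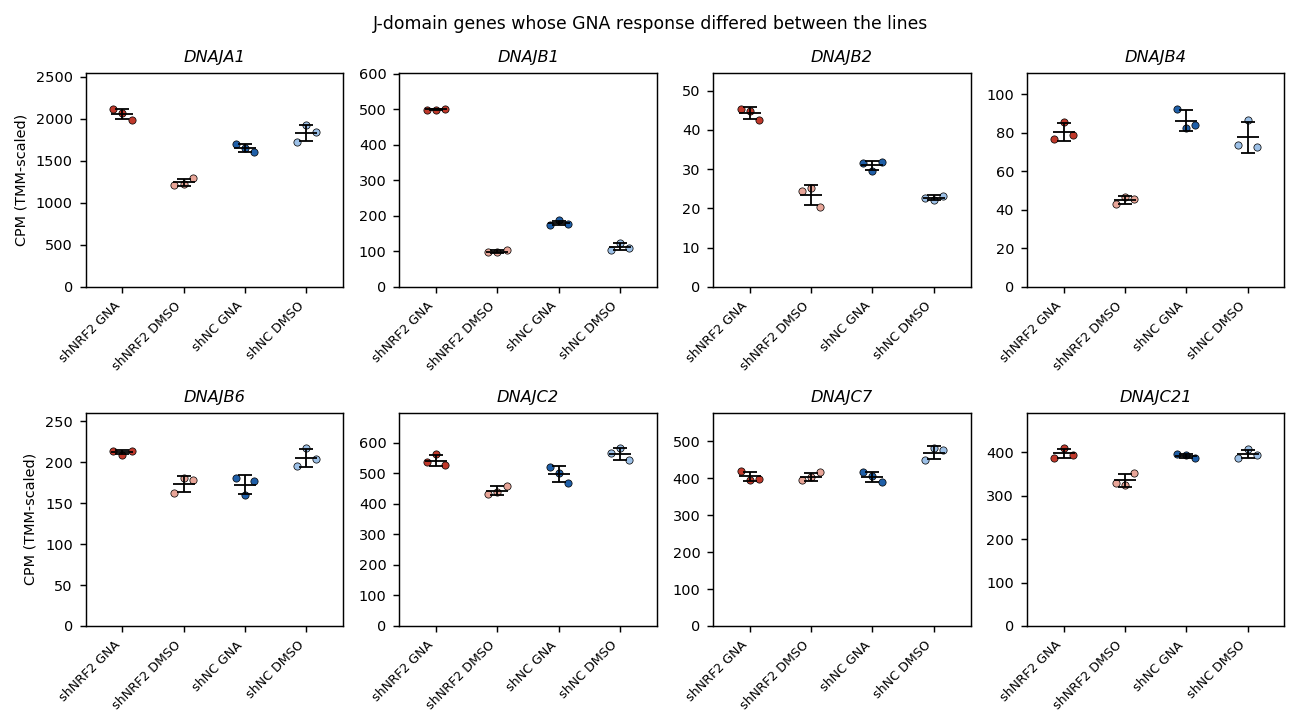
CPM of the 8 J-domain genes whose GNA response differed between the lines, in each library (points), with the mean and SD of 3 libraries per group. DNAJB1 reached 499 to 501 CPM in shNRF2 GNA and 97.1, 96.4 and 103 in shNRF2 DMSO, and in shNC 175 to 187 with GNA and 104 to 123 with DMSO.

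Of the 6 genes that rose in both lines, 4 had no called difference, 3 of them genes of the endoplasmic reticulum. The differences of DNAJC10 (0.00), DNAJC1 (0.12), DNAJC25 (0.16) and DNAJA3 (0.10) were not called. A missed call does not show that the responses were equal.

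With DMSO, the shNRF2 line had lower levels of part of the family. Against shNC, 3 of the 32 genes (9.38%) were higher and 11 (34.4%) lower, where 16.8% of all genes were called higher and 18.3% lower (35.2% either way). The median was -0.00089 over the 32 genes and 0.011 over all genes. With library totals all genes split into 3226 higher and 2266 lower, against 2636 and 2872 with TMM, and the J-domain genes into 4 higher and 8 lower. DNAJB4 fell by most, at 42.8, 46.9 and 45.8 CPM in shNRF2 DMSO, against 73.5, 86.6 and 72.5 CPM in shNC DMSO (-0.78 ± 0.073, edgeR adjusted p = 3.2e-09). DNAJA1 followed, at 1217, 1219 and 1295 CPM in shNRF2 DMSO, against 1725, 1922 and 1844 CPM in shNC DMSO (-0.56 ± 0.046, edgeR adjusted p = 3.0e-10). Both were lower in each of the 3 libraries, without overlap. The others that fell were DNAJC2 (-0.35), DNAJA2 (-0.34), DNAJC19 (-0.30), DNAJC5 (-0.27), DNAJC21 and DNAJB6 (-0.24 each), DNAJC7 and DNAJC8 (-0.22 each) and DNAJB1 (-0.19). In all, 6 of 8 genes of the cytosol and nucleus fell, and 0 of 8 of the endoplasmic reticulum. The call of DNAJB1 (edgeR adjusted p = 0.012) was lost with library totals (0.065) and with limma at either pseudocount (0.098 and 0.095). This call was also lost without shNRF2 DMSO 2 (0.056) or shNC DMSO 2 (0.13). Those of DNAJC5 and DNAJC19 were likewise lost with library totals (0.054 and 0.083), that of DNAJC5 also without shNRF2 DMSO 2 (0.085), shNC DMSO 2 (0.052) or shNC DMSO 3 (0.089), and that of DNAJC19 without shNRF2 DMSO 1 (0.23) or shNC DMSO 2 (0.27).

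DNAJB5, a class B gene of low level, was the largest rise: 10.9, 10.2 and 10.1 CPM in shNRF2 DMSO, against 6.55, 4.36 and 5.28 CPM in shNC DMSO (0.95 ± 0.16, edgeR adjusted p = 3.0e-05). The groups were apart. DNAJC10 was at 214, 212 and 234 CPM in shNRF2 DMSO, against 161, 162 and 161 CPM in shNC DMSO (0.45 ± 0.049, edgeR adjusted p = 4.8e-08), again without overlap. The rise of DNAJC13, an endosomal protein, was small (0.16 ± 0.057, edgeR adjusted p = 0.032) and was lost without shNRF2 DMSO 2 (0.083), shNRF2 DMSO 3 (0.11), shNC DMSO 1 (0.13) or shNC DMSO 3 (0.093).

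With GNA, the order of the lines turned for DNAJA1 and DNAJB6. It also turned for DNAJB1, whose lower level with DMSO lost its call in 5 of 22 alternatives. Against shNC GNA, shNRF2 GNA had 7 of the 32 genes (21.9%) higher and 2 (6.25%) lower, where 12.8% of all genes were called higher and 13.3% lower (26.1% either way). The median was 0.057 over the 32 genes and 0.013 over all genes. DNAJB1 was 1.48 ± 0.054 higher (edgeR adjusted p = 7.8e-18), at 499, 499 and 501 CPM in shNRF2 GNA, against 175, 187 and 177 CPM in shNC GNA. DNAJB2 was 0.51 ± 0.078 higher (edgeR adjusted p = 1.1e-05), at 45.4, 44.8 and 42.5 CPM in shNRF2 GNA, against 31.5, 29.5 and 31.8 CPM in shNC GNA. Neither gene's groups overlapped. DNAJC10 kept a 0.45 ± 0.048 higher level (edgeR adjusted p = 3.8e-08), at 303, 314 and 299 CPM in shNRF2 GNA, against 227, 226 and 217 CPM in shNC GNA. DNAJA1 and DNAJB6, lower in shNRF2 than in shNC with DMSO, were higher with GNA, at 0.32 ± 0.046 and 0.30 ± 0.056. DNAJB4, also lower with DMSO, stood at -0.10 ± 0.069 with GNA (edgeR adjusted p = 0.32), with overlapping groups.

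DNAJC14, a membrane protein of the endoplasmic reticulum, was at 21.3, 19.3 and 18.6 CPM in shNRF2 GNA, against 15.5, 15.1 and 16.4 CPM in shNC GNA (0.33 ± 0.095, edgeR adjusted p = 0.011). The groups were apart. Of its exon bases 23.2% are shared with AC023055.1 on the same strand, and 21.9% with ORMDL2 and 12.9% with TMEM198B on the opposite strand. The call was lost without shNRF2 GNA 1 (adjusted p = 0.066) or shNC GNA 2 (0.0503). DNAJC18 was called at 0.31 (edgeR adjusted p = 0.048) and lost the call in 16 of 22 alternatives. The lower genes were DNAJC9 (-0.20 ± 0.057) and DNAJA2 (-0.16 ± 0.047), and the call of DNAJA2 was lost without shNRF2 GNA 3 (adjusted p = 0.073) or shNC GNA 2 (0.056). Because these comparisons share libraries with those of GNA against DMSO, their values are given side by side and not counted as separate evidence. Without library shNC DMSO 1, the counts of genes called higher and lower were 12 and 1 for GNA in shNRF2, 7 and 8 for GNA in shNC, 9 and 1 for the difference of the responses, 6 and 2 for the hairpin in GNA and 2 and 11 for the hairpin in DMSO.

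**Figure D5:**
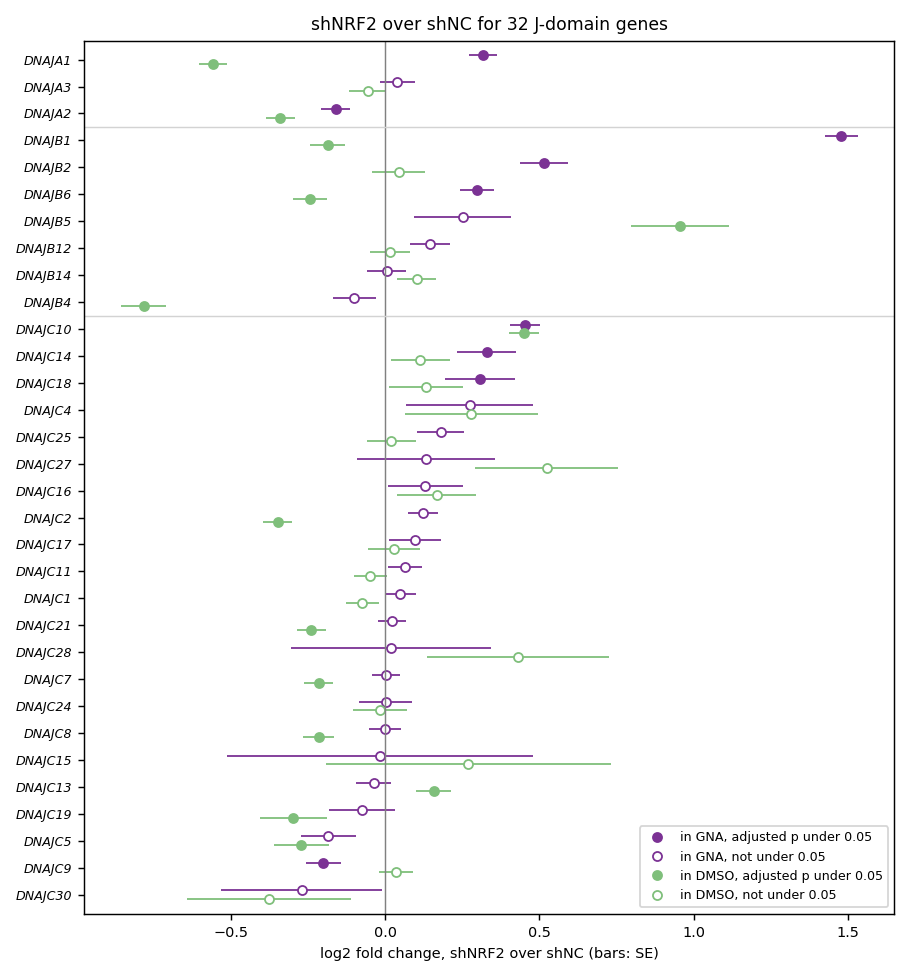
Log2 fold change of shNRF2 over shNC for the 32 tested J-domain genes, with SE bars, in GNA (purple) and in DMSO (green), by subfamily and ordered by the GNA value. Filled points have an adjusted p under 0.05. DNAJB1 lies at 1.48 in GNA and -0.19 in DMSO, DNAJA1 at 0.32 and -0.56, and DNAJC10 at 0.45 in each.

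The partners of the family were described from a list of 30 genes, made of HSP70 proteins, their exchange factors, other cofactors and the heat shock factors HSF1 and HSF2. GNA left 19 of the 30 higher and 2 lower in the shNRF2 line, where 16.7% of all tested genes were called higher and 17.0% lower. In the shNC line 14 were higher and 5 lower, beside 14.6% and 16.1% of all genes. HSPA6 rose by most of the 30, by 11.4 in shNRF2 and 8.46 in shNC. It went from 0.0684 CPM with DMSO to 224 with GNA in shNRF2, and from 0.175 to 64.0 in shNC. Its folds thus rest on DMSO levels near 0. HSPA1A, a stress-inducible HSP70, rose by 5.28 in shNRF2 and by 2.17 in shNC, and the exchange factor BAG3 by 2.36 and 0.60. HSPH1, an HSP110 exchange factor, rose by 1.73 in shNRF2 and 0.25 in shNC. The constitutive HSPA8 rose by 0.76 in shNRF2 and stood at -0.01 in shNC (edgeR adjusted p = 0.90). HSPA2 had the largest called fall, at -0.90 in shNRF2 and -0.84 in shNC. The difference of responses was called above 0 for 14 of the 30 and below 0 for 2, STUB1 (-0.91 ± 0.15) and BAG1 (-0.51 ± 0.084), beside 3.58% above and 3.24% below over all genes. With shNRF2 against shNC, 17 were higher and 4 lower in GNA, beside 12.8% and 13.3% of all genes. In DMSO 6 were higher and 13 lower, beside 16.8% and 18.3% of all genes, and HSPA1A stood at -0.95, BAG2 at -0.87 and HSPA8 at -0.51. HSPA1A and its near-identical copy HSPA1B can exchange reads.

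The 3 J-domain genes of endoplasmic reticulum stress were read in the same fit. DNAJB9 rose with GNA by 0.44 in shNRF2 and 0.47 in shNC, DNAJB11 fell by 0.31 and 0.33, and DNAJC3 stood at -0.08 and -0.13 without a call. All 3 were higher in shNRF2 than in shNC, by 0.61, 0.56 and 0.22 in GNA and by 0.64, 0.54 and 0.17 in DMSO. Their differences of response, at -0.03, 0.02 and 0.05, were not called. Of 13 further J-domain genes 9 were tested. GNA gave 2 higher and 0 lower of these in the shNRF2 line, beside 16.7% and 17.0% of all genes. In the shNC line it gave 1 and 1, beside 14.6% and 16.1%. For the difference of responses 1 was above 0, beside 3.58% above and 3.24% below over all genes.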

How the data were processed

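The authors deposited raw counts and FPKM for 61510 genes in 12 bulk libraries of total RNA, mapped to 4 groups of 3 by their labels. Per the submitters' processing notes the build was GRCh38 and DESeq2 was used. For its role, the aligner, the counter, the annotation release and the strandedness, the answer is not given in the sources used here. FPKM as deposited matched counts over library total and gene length in 100% of 9821 genes (relative tolerance 0.001), so they carry the scaling of library totals.

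Counts were filtered with filterByExpr (minimum count 10, minimum total 15), leaving 15653 genes, TMM-scaled and tested in edgeR 4.0.16 in R 4.3.3 (glmQLFit and glmQLFTest, 1 coefficient per group, 8 residual degrees of freedom). P-values were adjusted by Benjamini-Hochberg over all tested genes within each of 5 comparisons. The SE was the log2 fold change divided by the square root of F. An exact permutation test of 3 against 3 cannot go under p = 0.1. Alternatives used DESeq2 1.42.0, limma 3.58.1 on log2(FPKM + 1) and log2(FPKM + 0.1), other scalings and filters, only the groups compared, a replicate block and each library left out.

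The members, lists and naming rule were chosen with earlier results of these data known. Values in every library are given for the called genes with at least 5 CPM in a group and the largest absolute change: 8 for GNA in shNRF2, 5 for GNA in shNC, 5 for the difference and 4 for the hairpin in each treatment. Gene positions and exon overlaps are from the GENCODE annotation of GRCh38. Its exon bases differ for some genes from the lengths implied by the deposited FPKM. For DNAJC11 they are 5083 against 12182, and for DNAJC9 3955 against 3218. The shares of overlapping exon bases may thus differ in the annotation used for counting. Reads of overlapping genes or pseudogenes may be split. Single-cell libraries named by the series were not used here.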

Additional observations from a re-analysis of the deposited data

Results flagged for a closer look

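For 8 J-domain genes the interaction term put the GNA response of shNRF2 apart from that of shNC (edgeR, adjusted over all genes). The difference of log2 changes, shNRF2 minus shNC, was 1.66 for DNAJB1, 0.88 for DNAJA1, 0.68 for DNAJB4, 0.54 for DNAJB6, 0.47 for DNAJC2, 0.47 for DNAJB2, 0.26 for DNAJC21 and 0.22 for DNAJC7.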

How the results depend on the processing

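Most calls held under the alternatives. For GNA in shNRF2 12 of 13 calls, for GNA in shNC 8 of 14, for the difference of responses 5 of 8, for the hairpin in GNA 6 of 9 and for the hairpin in DMSO 10 of 14 were kept in every alternative, and no called value changed sign. With library totals, GNA in shNC gave 10 genes higher and 3 lower, and limma on log2(FPKM + 1) and log2(FPKM + 0.1) gave 2 lower each (DNAJC8 and DNAJC9). The cause was not tested. The difference of responses had 2 genes below 0 with library totals, 2 with DESeq2 and 1 with limma at either pseudocount. Leaving out each library in turn, the lower genes were 1 to 2 for GNA in shNRF2 (DNAJC28 added without shNRF2 GNA 1 or shNRF2 DMSO 2, DNAJB5 without shNRF2 GNA 2), 7 to 8 for GNA in shNC, 1 to 3 for the hairpin in GNA, 8 to 11 for the hairpin in DMSO and 0 to 1 for the difference (DNAJB5 without shNRF2 GNA 2 or shNC DMSO 1). The higher genes were 11 to 12, 6 to 7, 5 to 7, 2 to 3 and 6 to 9 in the same comparisons. With 3 libraries a group, and a library total near 12848607 counts at the lowest, the 6 genes under 5 CPM bear no firm statement.

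Libraries with the same replicate number did not deviate together: 0 of 18 such pairs correlated over 0.1, and 2 of 12 libraries were closest to their own number. With replicate number as a block, the genes called higher and lower were 12 and 1 for GNA in shNRF2, 6 and 8 for GNA in shNC, 7 and 0 for the difference, 6 and 2 for the hairpin in GNA and 3 and 11 for the hairpin in DMSO. The difference of DNAJC7 then had an adjusted p = 0.066 and the hairpin difference of DNAJC18 in GNA 0.052.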

Other observations

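Some of the family held nearly level in all 4 groups. DNAJC24, an accessory protein of diphthamide synthesis, averaged 36.1 CPM in shNRF2 GNA, 34.6 in shNRF2 DMSO, 36.1 in shNC GNA and 34.8 in shNC DMSO. DNAJB14, a membrane protein of the endoplasmic reticulum, averaged 63.2, 65.3, 63.0 and 60.9 CPM in these groups. DNAJB5 had its highest level without GNA in shNRF2: it was at 7.01, 9.56 and 8.19 CPM in shNRF2 GNA, against 10.9, 10.2 and 10.1 in shNRF2 DMSO (-0.33 ± 0.15, edgeR adjusted p = 0.097). In shNC it was at 7.70, 6.35 and 6.88 CPM with GNA, against 6.55, 4.36 and 5.28 with DMSO (0.37 ± 0.16, edgeR adjusted p = 0.087). The difference of these responses was -0.70 ± 0.22 (edgeR adjusted p = 0.056).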
